A study of Mus musculus with 6 samples.

Results

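10 genes of the tumor necrosis factor (TNF) receptor system of B-cells are described here. They are the receptors Tnfrsf13b, Tnfrsf13c, Cd40, Tnfrsf1b and Tnfrsf1a, and the adaptor genes Traf1, Traf2, Traf3, Traf5 and Traf6. They were chosen by name, with earlier results of these data known, and all 10 were present among the 46963 gene names of the count table. RNA was sequenced from CD43- splenic B-cells of 3 genotypes, all on a 129 background and taken from male and female mice of 8 to 12 weeks: wt mice, mice lacking the Eμ enhancer (Eμ-deficient, named EμMAR-deficient in the study's methods) and mice lacking the 3′ regulatory region (3′RR-deficient). Eμ and the 3′RR are the enhancers at the 5′ and the 3′ end of the constant genes of the immunoglobulin heavy chain (IgH) locus. For each genotype 1 library of resting B-cells and 1 library of LPS-stimulated B-cells was analysed, 6 libraries in all, each from a pool of 2 mice according to the labels. Lipopolysaccharide (LPS), a glycolipid of Gram-negative bacteria that B-cells sense through Toll-like receptors, was given at 5 μg per ml for 2 days. The labels describe the resting cells as grown for the same time without LPS, whereas the methods describe them as taken before stimulation. If the methods hold, LPS and 2 days of culture cannot be told apart. An LPS effect here therefore means the difference between the LPS-stimulated and the resting libraries. The methods give 4 mice per genotype, sampled in both states and combined into 2 pools, so that both libraries of a genotype may share mice. The groups analysed here hold no replicates. Both deletions remove enhancers that have no row in the count table, so that the genotype labels could not be checked on a targeted gene.

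BAFF, a cytokine of the TNF family that keeps mature B-cells alive, binds the BAFF receptor encoded by Tnfrsf13c and also TACI, encoded by Tnfrsf13b. TACI binds the related cytokine APRIL as well. CD40 receives the signal of helper T-cells, and TNF itself acts through TNFR1 (Tnfrsf1a), which carries a death domain, and TNFR2 (Tnfrsf1b), which does not. These receptors have no enzymatic activity and recruit TRAF proteins to their cytoplasmic tails. TRAF2 and TRAF3, together with the ubiquitin ligases cIAP1 and cIAP2, keep the kinase NIK (Map3k14) low in unstimulated cells and so hold back the non-canonical NF-κB pathway through p100 (Nfkb2) and RelB. TRAF6 serves CD40 and Toll-like receptors, including the LPS receptor.

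Library totals over all genes lay between 9111974 and 21998587 counts, and the 10 genes together between 6064 and 12713 counts. Levels are given as CPM, the counts of a gene per 1e6 counts of its library, with library sizes scaled by the trimmed mean of M-values (TMM). All 6 B-cell markers were present in every library, with summed levels of 1968 to 3040 CPM in resting and of 1690 to 2017 CPM in LPS-stimulated B-cells. Markers of myeloid, T- and erythroid cells were also present, and their sums stood lower after LPS. The 9 myeloid markers summed to 156 to 374 CPM in resting and 21.4 to 36.6 CPM in LPS-stimulated libraries, the 7 T-cell markers to 25.7 to 44.2 and 4.98 to 15.6 CPM, and the 6 erythroid markers to 3359 to 20163 and 53.0 to 671 CPM. The resting Eμ-deficient library held the highest of these sums in all 3 lists. The libraries also held spike-in RNAs, and the mix added to each library is not given in the sources used here. For the 35 spike-ins that reached 100 counts in all 6 libraries, the SD of their log2 ratio was 0.14 for LPS over resting in Eμ-deficient B-cells, 0.63 in 3′RR-deficient and 0.78 in wt B-cells, against 0.065 to 0.073 from counting alone. Between genotypes it reached 1.27 for 3′RR-deficient over wt after LPS.

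The DNA before the transcription start was examined for the 4 genes called under LPS for which it could be shown without an annotated exon in it. Each sequence holds the 250 bases upstream of the RefSeq start on GRCm38.p6, written 5′ to 3′ along the gene's strand, and capitals mark matches on either strand to a κB-type motif, GGG and CC with 5 bases of any kind between them. Tnfrsf13b lies at chr11:61126505-61126754 on the plus strand, Traf1 at chr2:34961773-34962022 on the minus strand, Traf5 at chr1:192092600-192092849 on the minus strand and Traf6 at chr2:101678170-101678419 on the plus strand.
Tnfrsf13b: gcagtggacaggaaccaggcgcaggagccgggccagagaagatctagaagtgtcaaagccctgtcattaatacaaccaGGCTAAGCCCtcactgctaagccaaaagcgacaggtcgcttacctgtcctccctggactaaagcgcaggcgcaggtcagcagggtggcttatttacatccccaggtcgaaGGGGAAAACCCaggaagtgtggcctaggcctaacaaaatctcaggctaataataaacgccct
Traf1: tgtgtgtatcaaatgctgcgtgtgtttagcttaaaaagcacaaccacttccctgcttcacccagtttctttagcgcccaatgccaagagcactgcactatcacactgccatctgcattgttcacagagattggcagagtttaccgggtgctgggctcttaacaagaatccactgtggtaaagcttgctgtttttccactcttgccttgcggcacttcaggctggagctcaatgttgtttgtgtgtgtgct
Traf5: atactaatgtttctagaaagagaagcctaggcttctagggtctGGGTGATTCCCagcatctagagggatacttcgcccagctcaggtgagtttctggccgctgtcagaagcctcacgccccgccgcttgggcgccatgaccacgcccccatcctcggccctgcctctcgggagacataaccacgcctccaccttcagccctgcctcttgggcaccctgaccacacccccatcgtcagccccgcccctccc
Traf6: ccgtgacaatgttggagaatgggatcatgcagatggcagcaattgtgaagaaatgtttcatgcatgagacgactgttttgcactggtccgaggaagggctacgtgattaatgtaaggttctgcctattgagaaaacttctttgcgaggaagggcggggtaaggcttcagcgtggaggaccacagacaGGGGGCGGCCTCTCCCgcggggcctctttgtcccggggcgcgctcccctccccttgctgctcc
Tnfrsf13b, which rose with LPS, held 3 matches, of which 2 overlapped in the run GGGGAAAACCC and the other lay from base -172 to base -163, counted from the start. Traf1, which also rose, held no match in its window. Traf5 and Traf6, which both fell, held an overlapping pair each, in the run GGGTGATTCCC and in the run GGGGGCGGCCTCTCCC. RefSeq windows of 250 bases before to 50 bases after the start were given for 9 of the 10 genes, all but Cd40. A match to the κB-type motif was found in 8 of these 9 windows, and in 50.8% of all 32851 windows of this length. Traf3, which was not called under LPS, carried the match GGGGATTTCC from base -10 to base -1. The AP-1-type motif TGANTCA was found in 0 of the 9 windows (7.8% of all windows), and the ETS-type motif CCGGAAG in 2, those of Tnfrsf1b and Tnfrsf1a (8.9% of all windows). Thus genes that rose, fell or were not called all included windows with the κB-type letters.

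**Figure D1:**
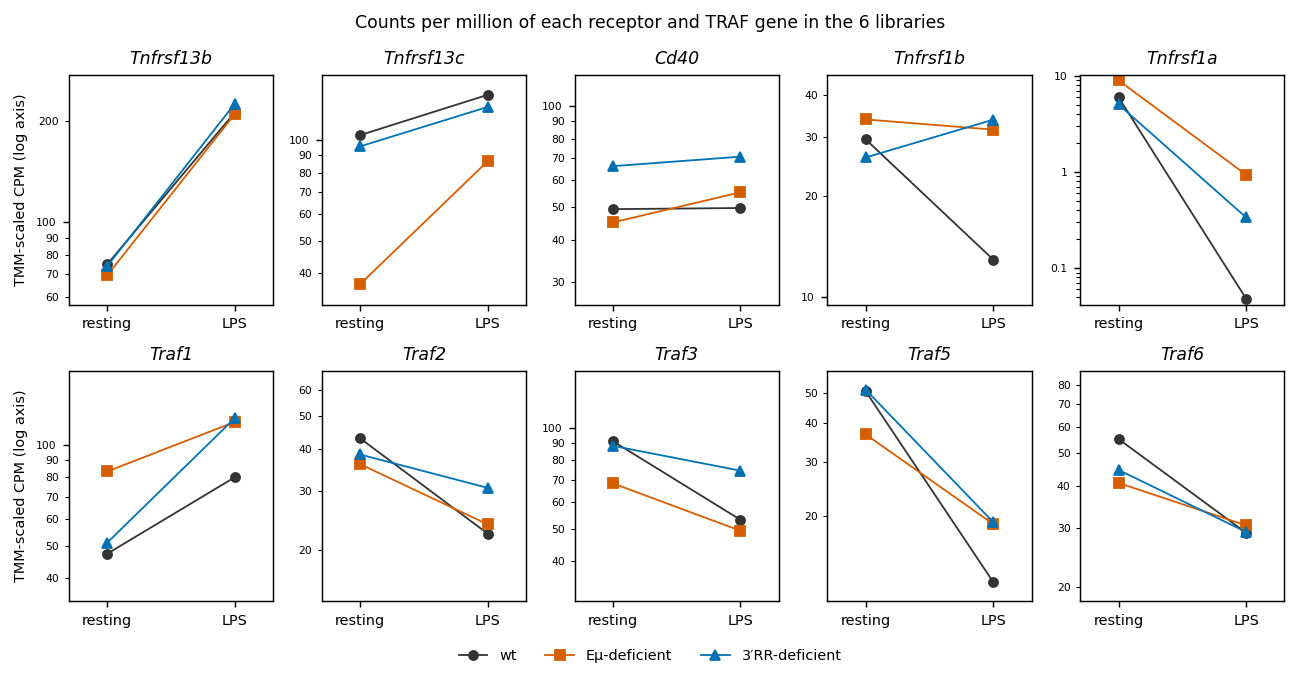
TMM-scaled CPM (log axis) of the 10 genes in resting and LPS-stimulated B-cells, with a line joining the 2 libraries of each genotype. The 3 lines of Tnfrsf13b lie on each other, from 69.5 to 75.0 CPM in resting to 210.3 to 226 CPM in LPS-stimulated B-cells, whereas the Tnfrsf1b line slopes down steeply in wt alone, from 29.5 to 12.9 CPM.

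Levels of different genes were compared per kilobase of exon. In resting B-cells the receptors of BAFF stood highest: the median over the 3 libraries was 46.8 CPM per kb for Tnfrsf13c, with a range of 18.1 to 50.5, and 26.1 CPM per kb for Tnfrsf13b. These ranges overlapped because of the Eμ-deficient library. Cd40 followed with 14.5 CPM per kb and did not overlap with either neighbour. Traf3, Traf5, Tnfrsf1b, Traf2, Traf1 and Traf6 came next, from a range of 9.29 to 12.4 CPM per kb for Traf3 down to 5.17 to 6.99 for Traf6, and each overlapped with its neighbour in this order. Tnfrsf1a was last with 2.32 CPM per kb. After LPS the order was Tnfrsf13b (74.9 CPM per kb), Tnfrsf13c (61.3), Cd40 (16.2), Traf1 (13.3), Tnfrsf1b (8.25), Traf3 (7.23), Traf2 (4.67), Traf5 (4.13), Traf6 (3.70) and Tnfrsf1a (0.13). Of the adjacent ranges after LPS, those of Tnfrsf1b and Traf3 and those of Traf5 and Traf6 overlapped. By the medians Traf1 thus moved up by 4 places in the order, Traf5 moved down by 3 and Traf3 by 2. These moves and the exchange of the first place all start from resting ranges that overlapped with a neighbour.

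The comparison of LPS-stimulated with resting B-cells asked which of these genes differ between the culture states on average over the 3 genotypes. Tnfrsf13b and Traf1 rose, Tnfrsf1a, Traf5 and Traf6 fell, and Tnfrsf13c, Cd40, Tnfrsf1b, Traf2 and Traf3 did not pass the test. The test was the edgeR quasi-likelihood test with additive terms for genotype and culture state and a Benjamini-Hochberg adjusted p below 0.05 over 14600 genes. The 3 genotypes served as the 3 pairs of libraries, so that the error measures how far libraries depart from an additive model, and the spread between mice was not measured. Of the 10 genes 2 were called higher, where 19.7% of all genes tested were called higher, and 3 were called lower, where 21.1% of all genes were. The 3 LPS-stimulated libraries lay above all 3 resting libraries for 1 of the 10 genes (25.0% of all genes) and below them for 4 (27.3% of all genes). These shares stand near those of all genes, and the median log2 fold change was -0.40 over the 10 genes and -0.07 over all genes tested.

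Tnfrsf13b (TACI, chromosome 11, 61126755 to 61149372, plus strand, 8 exon blocks) was the receptor that rose. It had 75.0, 69.5 and 74.1 CPM in resting wt, Eμ-deficient and 3′RR-deficient B-cells, and 212, 210.3 and 226 CPM after LPS. The 3 resting values lay close together, as did the 3 values after LPS, and the groups did not overlap. The fitted log2 fold change was 1.57 ± 0.24 (SE, adjusted p = 0.00107). Within genotypes the log2 ratio was 1.50 in wt, 1.60 in Eμ-deficient and 1.61 in 3′RR-deficient B-cells, with an SD of 0.057 over the 3 ratios. This was the smallest spread among the 10 genes. TACI was called under all 14 alternative settings tried, with log2 fold changes of 1.47 to 1.65.

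Tnfrsf13c (BAFF receptor, chromosome 15, 82221743 to 82224369, minus strand, 3 exon blocks) had 103.5, 37.1 and 95.8 CPM in resting wt, Eμ-deficient and 3′RR-deficient B-cells, and 136.5, 86.5 and 125.6 CPM after LPS. The Eμ-deficient library was the lowest in both states, and its value after LPS lay below the resting values of wt and 3′RR-deficient B-cells, so that the groups overlapped. The fitted LPS effect was 0.67 ± 0.26 on the log2 scale and missed the threshold (adjusted p = 0.0670). The log2 ratio was 0.40 (95% counting interval 0.32 to 0.49) in wt, 0.39 (0.28 to 0.50) in 3′RR-deficient and 1.22 (1.06 to 1.38) in Eμ-deficient B-cells. Without the wt libraries the effect was 0.82 and passed (adjusted p = 0.00673), whereas without the resting Eμ-deficient library it was 0.39 (adjusted p = 0.583). The latter fit rests on the wt and 3′RR-deficient pairs, as does the fit without both Eμ-deficient libraries (0.49, adjusted p = 0.472). The level of Tnfrsf13b per length relative to Tnfrsf13c within a library, which needs no scaling between libraries, was 0.52, 1.35 and 0.56 in resting wt, Eμ-deficient and 3′RR-deficient B-cells and 1.12, 1.76 and 1.30 after LPS. Thus TACI transcripts exceeded those of the BAFF receptor per length in every LPS-stimulated library and, among the resting libraries, in the Eμ-deficient one alone.

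Against wt, the Eμ-deficient library had a Tnfrsf13c log2 ratio of -1.48 (95% counting interval -1.63 to -1.34) in resting and -0.66 (-0.77 to -0.55) in LPS-stimulated B-cells. Both values lay below 0 beyond counting error, and the resting one lay further from 0. In the additive fit the Eμ-deficient effect was -1.05 ± 0.32, the largest fall in size among the 10 genes for this contrast, with an unadjusted p of 0.00937 and an adjusted p of 0.239 (edgeR). The adjusted p ranged from 0.0527 to 1.0 over 11 alternatives. Other B-cell markers were also lower in the resting Eμ-deficient library: Cd79a, a chain of the B-cell receptor complex, had 271 CPM against 570 in wt and 586 in 3′RR-deficient B-cells, and Cd22, an inhibitory B-cell receptor, 217 against 391 and 398 CPM. Ms4a1, which encodes CD20, had 444 CPM against 339 and 462. In the same library the summed erythroid markers stood at 20163 CPM against 3359 and 3868. The 5 plasma cell markers summed to 2235 CPM in Eμ-deficient against 547 in wt and 592 in 3′RR-deficient resting B-cells. After LPS the sums were 1591 against 582 and 892 CPM. The sum was thus highest in the 2 libraries where Tnfrsf13c was lowest within its state. Jchain made up 1737 CPM of it in the resting and 804 CPM in the LPS-stimulated Eμ-deficient library. Irf4 alone was not highest in these libraries. It had 367 against 373 and 365 CPM in resting and 366 against 268 and 386 CPM in LPS-stimulated B-cells. Over all genes, the log2 ratio of the resting Eμ-deficient to the wt library correlated with exonic GC content with a Spearman rho of -0.38. With this GC trend removed the Tnfrsf13c ratio was -1.35. The part of these in the low Tnfrsf13c value was not tested, and in such bulk samples fewer cells of a type and less RNA per cell cannot be told apart.

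Cd40 (chromosome 2, 165055627 to 165072948, plus strand, 9 exon blocks) had 49.3, 45.0 and 66.2 CPM in resting wt, Eμ-deficient and 3′RR-deficient B-cells, and 49.7, 55.3 and 70.6 CPM after LPS. Values of a genotype were similar in both states, and the 3′RR-deficient libraries were the highest in each state. The fitted LPS effect was 0.13 ± 0.22 (adjusted p = 0.645), and no alternative called it. The 3′RR-deficient over wt log2 ratio was 0.43 (0.30 to 0.55) in resting and 0.51 (0.36 to 0.65) in LPS-stimulated B-cells. In the additive fit this difference was 0.47 ± 0.26 and was not called (unadjusted p = 0.112, adjusted p = 0.915).

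Tnfrsf1a (TNFR1, chromosome 6, 125349362 to 125362484, plus strand, 11 exon blocks) was the least abundant of the 10 genes and had the largest fall. It had 109, 119 and 104 counts in resting wt, Eμ-deficient and 3′RR-deficient B-cells, that is 6.0, 9.02 and 5.06 CPM. After LPS there were 1, 10 and 3 counts, that is 0.048, 0.94 and 0.34 CPM. All 3 LPS values lay far below all 3 resting values. The fitted log2 fold change was -4.25 ± 0.58 (adjusted p = 0.000682), and it was called under 14 of 14 alternatives. The log2 ratio was -6.97 (95% counting interval -12.3 to -4.46) in wt, -3.27 (-4.36 to -2.34) in Eμ-deficient and -3.91 (-6.21 to -2.32) in 3′RR-deficient B-cells. The intervals of wt and Eμ-deficient B-cells did not overlap. At 1 to 10 counts per library after LPS, the depth did not allow the remaining levels to be ordered between wt and 3′RR-deficient B-cells.

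The myeloid markers moved in the same direction as Tnfrsf1a, and all 9 were called lower after LPS. Csf1r, the receptor for macrophage colony-stimulating factor, had 36.0, 103 and 46.9 CPM in resting wt, Eμ-deficient and 3′RR-deficient B-cells and 0.29, 2.63 and 2.25 CPM after LPS. In the wt library after LPS, S100a9 and Mpo had no counts, and Cd14 had none in the 3′RR-deficient one. Itgam and Adgre1 kept more, with 209 and 151 counts in the wt library after LPS, against 305 and 273 in resting wt B-cells. The resting Eμ-deficient library was the highest both for Tnfrsf1a and for the myeloid sum, which was 374 CPM against 156 in wt and 158 in 3′RR-deficient B-cells. The part of myeloid cells in the fall of Tnfrsf1a was not tested.

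Tnfrsf1b (TNFR2, chromosome 4, 145213463 to 145246870, minus strand, 10 exon blocks) had 29.5, 33.8 and 26.0 CPM in resting wt, Eμ-deficient and 3′RR-deficient B-cells, and 12.9, 31.5 and 33.7 CPM after LPS. The wt library after LPS was the lowest of all 6, whereas the other 5 libraries lay between 26.0 and 33.8 CPM. The log2 ratio was -1.19 (95% counting interval -1.41 to -0.98) in wt, -0.10 (-0.31 to 0.11) in Eμ-deficient and 0.37 (0.17 to 0.58) in 3′RR-deficient B-cells. The fitted LPS effect of -0.30 ± 0.31 was not called (adjusted p = 0.464) and turned to 0.16 without the wt libraries. With the GC trend removed, the ratio was -0.81 in wt and 0.25 in 3′RR-deficient B-cells.

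The T-cell markers also differed between the LPS-stimulated libraries, with sums of 4.98 CPM in wt, 15.6 in Eμ-deficient and 12.8 in 3′RR-deficient B-cells. Lck, a kinase of T-cells, made up 4.55, 11.4 and 10.9 CPM of these sums. The T-cell marker Cd3e was at or near 0 there, with 0, 4 and 1 counts. Myeloid sums after LPS were 21.4, 36.6 and 28.8 CPM in the same order. The spike-in ratios had an SD of 0.78 for the wt pair of libraries. The part of these differences in the low wt value of Tnfrsf1b was not tested.

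**Figure D2:**
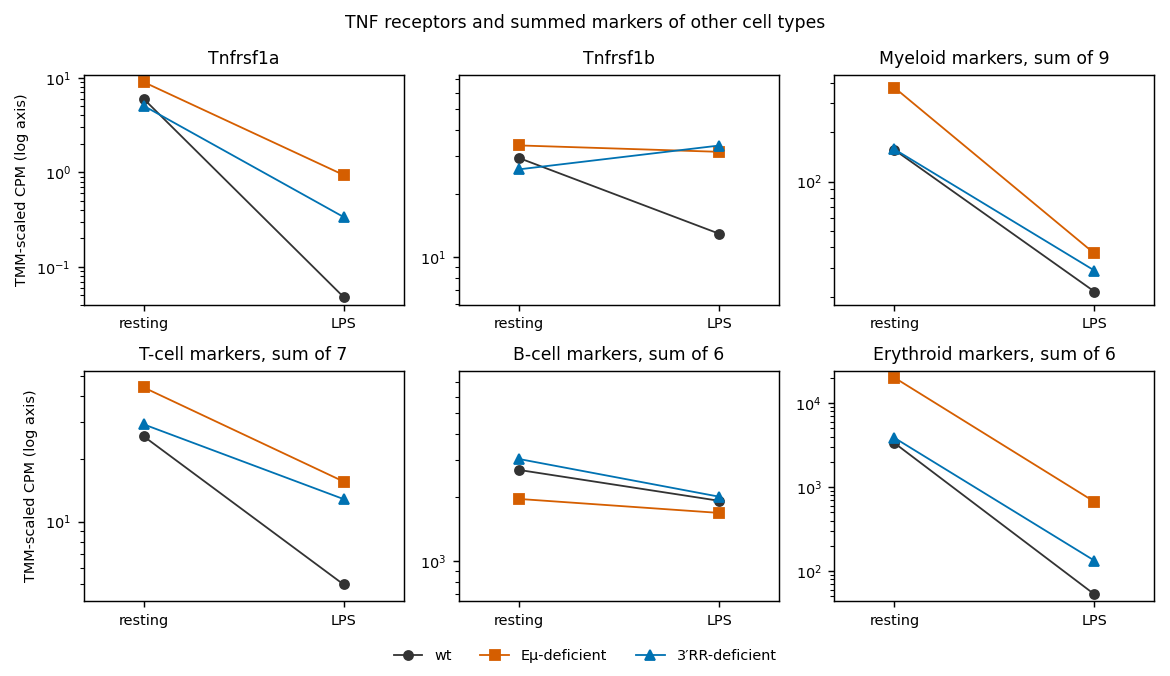
TMM-scaled CPM (log axis) of Tnfrsf1a and Tnfrsf1b beside the summed CPM of myeloid, T-cell, B-cell and erythroid markers in the 6 libraries, with a line joining the libraries of a genotype. Tnfrsf1a and the myeloid sum fall in all 3 genotypes, the latter from 156 to 374 CPM to 21.4 to 36.6 CPM. The B-cell sum is also lower after LPS in all 3 genotypes, by less, from 1968 to 3040 CPM to 1690 to 2017 CPM.

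Among the adaptors, Traf1 was the gene that rose. TRAF1 lacks the RING domain of the other members of its family and binds TRAF2. Traf1 (chromosome 2, 34941750 to 34961772, minus strand, 7 exon blocks) had 47.4, 83.3 and 51.1 CPM in resting wt, Eμ-deficient and 3′RR-deficient B-cells, and 80.0, 117 and 120.0 CPM after LPS. It was higher after LPS in each genotype, but the resting Eμ-deficient value exceeded the wt value after LPS, so that the groups overlapped. The fit gave a log2 fold change of 0.83 ± 0.24 (adjusted p = 0.0240). The log2 ratio was 0.76 (0.64 to 0.88) in wt, 0.49 (0.37 to 0.61) in Eμ-deficient and 1.23 (1.11 to 1.36) in 3′RR-deficient B-cells.

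The Traf1 call was made under 9 of 14 alternatives. It was lost without the Eμ-deficient libraries (log2 fold change 1.09, adjusted p = 0.0553) and without the 3′RR-deficient libraries (0.61, adjusted p = 0.179). It was also lost without the genotype term (0.80, adjusted p = 0.0583). The fits without the resting Eμ-deficient library alone (0.99, adjusted p = 0.0947) and without the LPS-stimulated 3′RR-deficient library alone (0.63, adjusted p = 0.168) lost it too. For the LPS effect they rest on the same pairs of libraries as the fits without that genotype, and are no separate evidence. Traf1 was higher than wt in the Eμ-deficient library of both states, with log2 ratios of 0.81 (0.68 to 0.94) in resting and 0.55 (0.44 to 0.65) in LPS-stimulated B-cells. Xbp1, a transcription factor of plasma cells, was also higher than wt in both, with 91.4 against 43.4 CPM in resting and 298 against 141 CPM in LPS-stimulated B-cells. Xbp1 was also higher after LPS than in resting B-cells of each genotype. Of the other plasma cell markers, Sdc1, Prdm1 and Jchain were higher than wt in both states, whereas Irf4 was not in resting B-cells (367 against 373 CPM). The part of plasma cells in the Traf1 values was not tested. The fitted Eμ-deficient effect of 0.69 ± 0.30 was not called (unadjusted p = 0.0444, adjusted p = 0.546).

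Traf2 and Traf3, whose products act together on NIK, had lower values after LPS without passing the test. Traf2 (chromosome 2, 25517982 to 25546940, minus strand, 10 exon blocks) had 43.0, 36.0 and 38.4 CPM in resting wt, Eμ-deficient and 3′RR-deficient B-cells, and 22.4, 23.8 and 30.6 CPM after LPS. All LPS values lay below all resting values. The fit gave a log2 fold change of -0.62 ± 0.23 (adjusted p = 0.0561), just above the threshold, and it passed under 3 of 14 alternatives, among them removal of the GC trend (adjusted p = 0.0150). The log2 ratio was -0.94 in wt, -0.60 in Eμ-deficient and -0.33 in 3′RR-deficient B-cells.

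Traf3 (chromosome 12, 111166370 to 111267153, plus strand, 13 exon blocks) had 91.2, 68.3 and 88.3 CPM in resting wt, Eμ-deficient and 3′RR-deficient B-cells, and 53.2, 49.3 and 74.5 CPM after LPS. It was lower after LPS in each genotype, and the groups overlapped through the resting Eμ-deficient library. The fitted log2 fold change was -0.50 ± 0.23 (adjusted p = 0.110), and only removal of the GC trend brought it past the threshold (-0.44, adjusted p = 0.0374). Its log2 ratio was -0.78 in wt, -0.47 in Eμ-deficient and -0.25 in 3′RR-deficient B-cells, the same order of genotypes as for Traf2.

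Per length and within a library, Traf1 stood at 0.64, 1.34 and 0.77 times Traf2 in resting wt, Eμ-deficient and 3′RR-deficient B-cells, and at 2.07, 2.84 and 2.27 times after LPS. This ratio was above 2 in every LPS-stimulated library and did not overlap between the states. The resting Eμ-deficient library was again the highest of the resting libraries.

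Traf5, whose product binds CD40 and other receptors as TRAF2 does, had the largest fall among the adaptors. Traf5 (chromosome 1, 191997205 to 192092559, minus strand, 12 exon blocks) had 50.5, 36.7 and 51.1 CPM in resting wt, Eμ-deficient and 3′RR-deficient B-cells, and 12.3, 18.9 and 19.1 CPM after LPS. The groups did not overlap. Over the genotypes the log2 fold change was -1.48 ± 0.27 (adjusted p = 0.00268), and it was called under all 14 alternatives. The log2 ratio was -2.04 (-2.25 to -1.84) in wt, -0.96 (-1.20 to -0.72) in Eμ-deficient and -1.42 (-1.66 to -1.18) in 3′RR-deficient B-cells. The counting intervals of wt did not overlap with those of either mutant. The wt library was thus the lowest after LPS, while in resting B-cells the Eμ-deficient library was. An antisense gene, Gm26879, overlaps Traf5 over 205 bases and had 1 count in all 6 libraries together.

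Traf6 (chromosome 2, 101678429 to 101701669, plus strand, 8 exon blocks) had 55.1, 40.8 and 44.6 CPM in resting wt, Eμ-deficient and 3′RR-deficient B-cells, and 29.0, 30.5 and 29.1 CPM after LPS. The resting libraries differed more from each other than the LPS-stimulated ones, and the groups did not overlap. The fitted log2 fold change was -0.66 ± 0.22 (adjusted p = 0.0435). This call was made under 8 of 14 alternatives and lay close to the threshold. It was lost when any genotype was left out, with an adjusted p of 0.0505 without wt, 0.240 without Eμ-deficient and 0.121 without 3′RR-deficient libraries, and log2 fold changes of -0.49, -0.68 and -0.69, respectively. It was also lost without the filter on low counts (-0.62, adjusted p = 0.0785). The fits without the resting Eμ-deficient library alone (-0.78, adjusted p = 0.175) and without the LPS-stimulated 3′RR-deficient library alone (-0.67, adjusted p = 0.132) lost it too. They rest on the same pairs of libraries as the fits without that genotype.

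**Figure D3:**
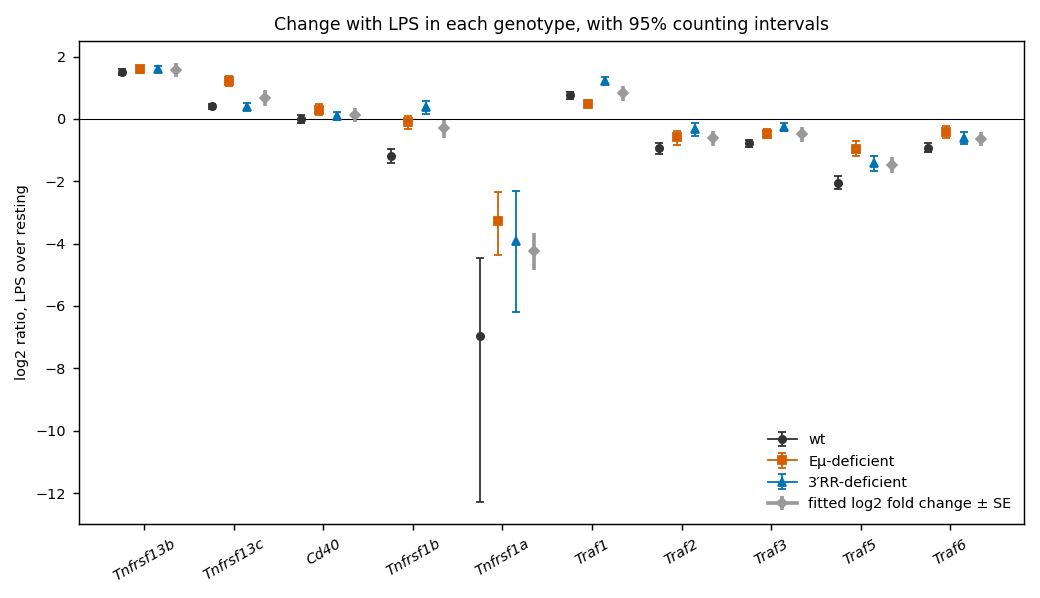
Log2 ratio of LPS-stimulated over resting B-cells for each gene and genotype with 95% counting intervals, and in gray the fitted log2 fold change ± SE over the 3 genotypes. Ratios of Tnfrsf13b lie close together (1.50 to 1.61), those of Tnfrsf1b lie on both sides of 0 (-1.19 to 0.37), and the interval of Tnfrsf1a in wt spans -12.3 to -4.46 because 1 count was left after LPS.

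The comparisons between genotypes asked whether loss of either IgH enhancer goes with a change in these genes, which lie outside the IgH locus. The edgeR test called 0 of the 10 genes for 3′RR-deficient against wt B-cells, where 0.678% of all genes tested were called. It called 0 of 10 for Eμ-deficient against wt (1.16% of all genes) and 0 of 10 for Eμ-deficient against 3′RR-deficient B-cells (1.3% of all genes). At an unadjusted p below 0.05 there were 0, 2 and 1 genes, respectively, namely Tnfrsf13c and Traf1 for Eμ-deficient against wt and Tnfrsf13c for Eμ-deficient against 3′RR-deficient B-cells. Over all genes tested this p was reached by 5.69%, 8.68% and 12.5%, respectively. DESeq2 also called 0 of 10 in each of the 3 comparisons. The smallest adjusted p of the 10 genes under any alternative was 0.0527, for Tnfrsf13c in Eμ-deficient against wt B-cells. Each genotype entered this fit with 2 libraries, 1 per state.

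All per-state ratios of Tnfrsf13b to wt lay near 0. Its log2 ratio to wt was -0.11 (-0.23 to 0.01) for the Eμ-deficient and -0.02 (-0.12 to 0.09) for the 3′RR-deficient library in resting B-cells, and -0.02 (-0.09 to 0.06) and 0.09 (0.01 to 0.16) after LPS. The intervals cover counting error only and compare libraries, not genotypes. In the resting Eμ-deficient library 4 of the 5 adaptors lay below wt. Their log2 ratio was -0.26 for Traf2, -0.42 for Traf3, -0.46 for Traf5 and -0.43 for Traf6, each with an interval below 0, against 0.81 for Traf1. Of all genes tested, 27.7% had an interval below 0 in this pair. After LPS the same ratios were 0.09, -0.11, 0.62, 0.07 and 0.55, respectively.

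In 3′RR-deficient B-cells after LPS, 4 of the 5 adaptors lay above wt beyond counting error, as did 31.8% of all genes tested in this pair, with log2 ratios of 0.59 for Traf1, 0.45 for Traf2, 0.49 for Traf3 and 0.64 for Traf5. Traf6 was at 0.01 (-0.21 to 0.22). These ratios came from the pair of libraries with the widest spike-in spread (SD 1.27), and over all genes they correlated with exonic GC content with a Spearman rho of 0.56. After removal of the GC trend they were 0.12 for Traf1, 0.21 for Traf2, 0.09 for Traf3 and 1.33 for Traf5, whose exons have the lowest GC content of the 10 genes (40.8%). In the resting pair, with a spike-in SD of 0.16, Traf1, Traf2, Traf3 and Traf5 stood at 0.11, -0.16, -0.05 and 0.02. Tnfrsf1b was at 1.29 (1.05 to 1.52) in Eμ-deficient and 1.39 (1.14 to 1.63) in 3′RR-deficient over wt B-cells after LPS, and both ratios share the low wt library.

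**Figure D4:**
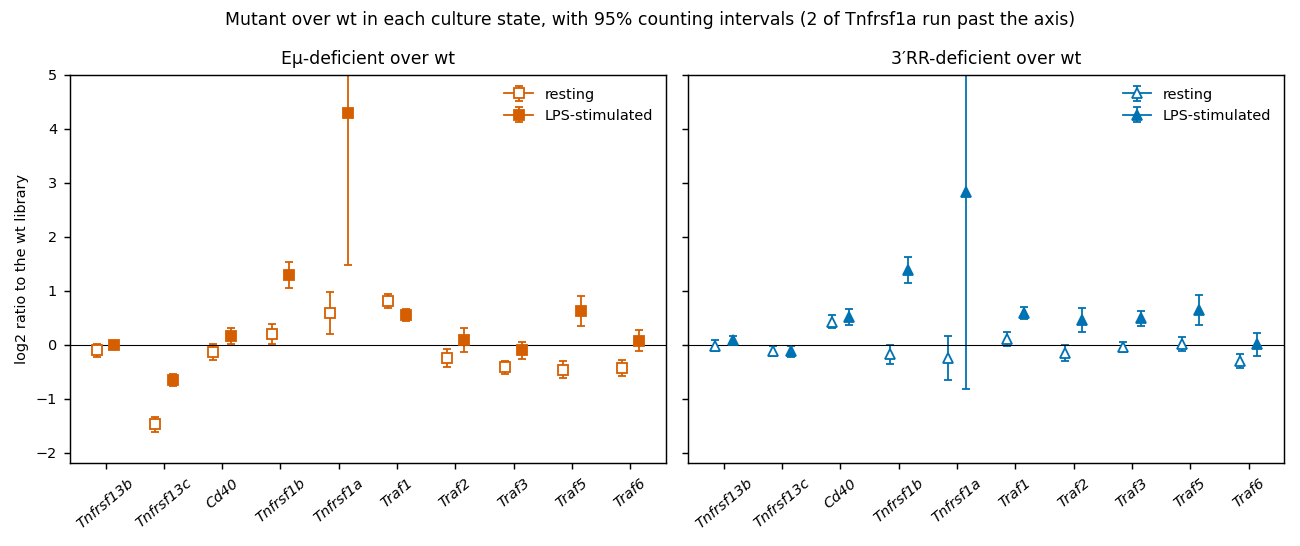
Log2 ratio of the Eμ-deficient (left) and the 3′RR-deficient (right) library to the wt library in resting (open) and LPS-stimulated (filled) B-cells, with 95% counting intervals. Tnfrsf13c lies at -1.48 and -0.66 in the left panel, Tnfrsf1b at 1.29 and 1.39 after LPS in both panels, and 2 intervals of Tnfrsf1a after LPS run past the axis because wt had 1 count.

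Other genes of the TNF receptor system were followed in 4 lists of 63 genes in all, of which 58 passed the filter on low counts. Of these, 6 were called higher and 17 lower after LPS, where 19.7% of all genes tested were called higher and 21.1% lower. They had a median log2 fold change of -0.41, against -0.07 over all genes tested. The same shares of all genes stand behind the counts of each list given next. The lists held 14 ligands, 15 other receptors, 21 partners of the TRAF proteins and 13 downstream kinases and NF-κB subunits. For each of the 3 comparisons between genotypes, 0 of the 58 genes were called by edgeR and 0 by DESeq2. At an unadjusted p below 0.05 there were 2 for 3′RR-deficient against wt, 5 for Eμ-deficient against wt and 8 for Eμ-deficient against 3′RR-deficient B-cells, where the shares of all genes were 5.69%, 8.68% and 12.5%. Without the resting Eμ-deficient library, 14 genes in place of 23 were called under LPS, and 12 without both Eμ-deficient libraries.

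Among the 10 ligands tested, 2 were called higher (19.7% of all genes) and 4 lower (21.1% of all genes). Ltb, which encodes lymphotoxin β, was the abundant one that fell, from 145, 101 and 162 CPM in resting wt, Eμ-deficient and 3′RR-deficient B-cells to 23.8, 22.9 and 43.4 CPM, a log2 fold change of -2.22 ± 0.25 (adjusted p = 0.000284). Tnfsf13 (APRIL), a ligand of TACI, had 9, 25 and 11 counts in resting and 0, 2 and 0 counts in LPS-stimulated B-cells and was called lower (adjusted p = 0.00710). Fasl, the ligand of Fas, also fell (-2.81, adjusted p = 0.0147), from at most 14 counts. Of the markers tested, 9 of 9 myeloid, 5 of 6 T-cell and 2 of 3 NK cell genes were also called lower, the last list going from summed levels of 4.13 to 6.23 CPM in resting to 0 to 2.16 CPM in LPS-stimulated libraries, and their part in the falls of Tnfsf13 and Fasl was not tested. Tnfsf4, which encodes OX40 ligand, rose by 2.85 (adjusted p = 0.00822) with at most 26 counts. Tnfsf9, which encodes 4-1BB ligand, was called higher by 1.88 (adjusted p = 0.0410), also at low counts. It changed little in wt, from 20 to 26 counts (1.10 to 1.24 CPM). In Eμ-deficient B-cells it went from 5 to 34 counts and in 3′RR-deficient B-cells from 8 to 24. Tnfsf13b, which encodes BAFF, was below the filter with at most 6 counts in a library.

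Of the 14 other receptors tested, 2 were called higher and 6 lower. Tnfrsf8 (CD30) had 0.44, 0.38 and 1.31 CPM in resting and 3.30, 8.44 and 8.32 CPM in LPS-stimulated wt, Eμ-deficient and 3′RR-deficient B-cells, a log2 fold change of 3.22 ± 0.44 (adjusted p = 0.000681). Tnfrsf10b, a receptor for TRAIL, rose by 1.39 (adjusted p = 0.00726). Ltbr, the lymphotoxin β receptor, had 42, 51 and 36 counts in resting and 1, 3 and 0 counts in LPS-stimulated B-cells (adjusted p = 0.000853), and the part of the myeloid markers, lower in the same libraries, was not tested. Cd27 fell by 2.32 on the log2 scale (adjusted p = 0.0190), and Tnfrsf12a fell by 2.03 (adjusted p = 0.00747), both at low counts. In wt, Eμ-deficient and 3′RR-deficient B-cells Cd27 went from 21, 13 and 23 to 2, 3 and 3 counts. Tnfrsf12a went from 67, 34 and 73 to 10, 9 and 11 counts. The part of other cell types in these falls was not tested. Tnfrsf17 (BCMA), the receptor of BAFF and APRIL on plasma cells, was not called (-1.05 ± 0.71, adjusted p = 0.263). It had 3, 33 and 12 counts in resting and 1, 6 and 7 counts in LPS-stimulated B-cells, and the resting Eμ-deficient library with the highest count also held the most Jchain, a plasma cell gene (1737 CPM against 113 in wt and 171 in 3′RR-deficient B-cells). After LPS, Tnfrsf17 was highest in the 3′RR-deficient library (0.79 CPM against 0.56 in Eμ-deficient). Jchain was highest there in the Eμ-deficient library (804 CPM against 200 in 3′RR-deficient B-cells). The part of plasma cells in the Tnfrsf17 values was not tested.

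The 21 TRAF partners were all tested, and 2 were called higher and 2 lower. Tnfaip3, which encodes the ubiquitin-editing inhibitor A20, fell from 185, 205 and 199.7 CPM in resting wt, Eμ-deficient and 3′RR-deficient B-cells to 50.3, 56.4 and 59.4 CPM (-1.83 ± 0.24, adjusted p = 0.000497). Birc3 (cIAP2) fell from 184, 164 and 185 CPM to 95.3, 97.9 and 99.7 CPM (-0.86 ± 0.23, adjusted p = 0.0167). Its relative Birc2 (cIAP1) was not called (-0.36 ± 0.26, adjusted p = 0.287). Traip, a ubiquitin ligase that acts at replication forks, rose by 1.78 (adjusted p = 0.000777), and Ube2n, the ubiquitin-conjugating enzyme used by TRAF6, by 0.86 (adjusted p = 0.0163).

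Of the 13 downstream genes, 0 were called higher and 5 lower by edgeR. Map3k14 (NIK) had 41.7, 25.8 and 39.3 CPM in resting wt, Eμ-deficient and 3′RR-deficient B-cells and 8.76, 14.8 and 20.7 CPM after LPS, a log2 fold change of -1.32 ± 0.32 (adjusted p = 0.0100). Ikbkb, a kinase of the IκB kinase complex, fell by 1.26 on the log2 scale (adjusted p = 0.00405), and Map3k8 fell by 1.13 (adjusted p = 0.00351). Relb fell by 1.02 (adjusted p = 0.00790), and Nfkb2 had a log2 fold change of -0.71 ± 0.26 that was not called (adjusted p = 0.0565). Thus NIK and RelB transcripts were lower after LPS, as were those of Birc3, while Traf2, Traf3, Birc2 and Nfkb2 did not pass the test.

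**Figure D5:**
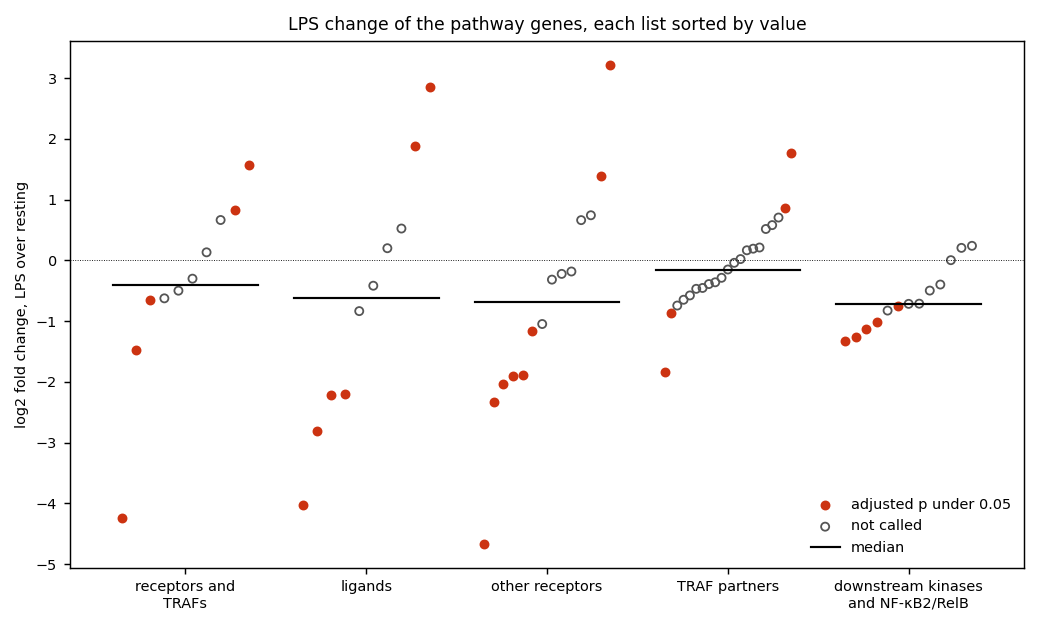
Fitted log2 fold change after LPS of the 10 genes and of the tested genes in the 4 lists, sorted by value within each list. Filled points were called (edgeR, adjusted p below 0.05), and bars mark medians, which lie between -0.72 for the downstream genes and -0.15 for the TRAF partners.

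For each of the 10 genes, the genes with the most similar course over the 6 libraries were searched among genes with a mean of at least 10 CPM. Likeness was measured by the root mean square (rms) difference of log2 CPM, centered on each gene's mean. The closest match of all was Tollip for Traf2 (rms 0.036). Rfwd3 was nearest to Tnfrsf13b (0.058), Tfeb to Traf3 (0.059), Rfx5 to Traf6 (0.060), Fam102a to Traf5 (0.071) and Dctn6 to Cd40 (0.073). Ern1 was nearest to Traf1 (0.11), followed by Sel1l (0.11) and Optn (0.13), and Lck was nearest to Tnfrsf1b (0.12). The nearest genes of Tnfrsf13c and Tnfrsf1a lay further off by this measure, Nsmce1 (0.16) and Lrp1 (0.35). The rms difference grows with the size of a gene's own changes. The Pearson correlation was 0.967 for Nsmce1 and 0.994 for Lrp1, where the nearest genes of the others had 0.952 (Cd40) to 0.998 (Tnfrsf13b). Within the 10 genes, Traf2 and Traf3 were the most alike (0.13), followed by Traf2 and Traf6 (0.16).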

How the data were processed

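CD43- splenic B-cells of 3 genotypes were analysed in 2 culture states, 1 library each. The authors depleted ribosomal RNA, made stranded libraries, mapped paired reads to mm10 with STAR 2.4.0a and counted primary alignments per gene name with featureCounts (Subread 1.4.6-p1), multi-mapping reads included. Per the submitters' notes and the methods, the deposited values are raw counts. The 92 spike-in names, 4.75% to 7.1% of the counts, entered neither library sizes nor tests. Over 57 pairs of overlapping genes, the gene on the strand opposite to a protein-coding gene held 1.6% of its counts. Only pairs with an abundant protein-coding gene were kept, which favors a low share, so that this check cannot settle the strand. The counts are taken to be on the sense strand.

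Genes that reached 10 counts in 2 or more libraries, 14600 in all, were fitted with edgeR 4.0.16 (R 4.3.3; glmQLFit and glmQLFTest, TMM scaling, genotype plus culture state, 2 residual degrees of freedom), and p-values were adjusted by Benjamini-Hochberg (threshold 0.05). The SE of a fitted log2 fold change was not estimated directly. It is the size of the log2 fold change divided by the square root of the F statistic of the edgeR test. Ratios of 2 libraries were given as log2 ratios of TMM-scaled CPM, with exact conditional binomial 95% intervals (Clopper-Pearson, scipy 1.17.1) that measure counting error alone, since amplified reads are not independent molecules. Positions, exon lengths and GC content were taken from GENCODE M21 of GRCm38, the build of mm10, in which 44131 names were found, and promoters from RefSeq on GRCm38.p6.

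The 10 genes, the 4 pathway lists and the marker lists were chosen with earlier results of these data known. All 10 genes are named, and from each list up to 3 called rises and up to 3 called falls of the largest size that went the same way in the 3 genotypes, plus Tnfrsf17, Tnfsf13b, Birc2, Birc3, Map3k14, Nfkb2 and Relb whatever their values. The 2 ratios between genes of 1 library, and single marker genes given beside a result, were chosen after their values were seen. The alternatives were other filters on low counts, scaling by total count, DESeq2 size factors, the Wald test of DESeq2 1.42.0, immunoglobulin genes left out, the GC trend removed, no genotype term, and each genotype left out. Scaling by protein-coding genes and leaving out the LPS-stimulated 3′RR-deficient or the resting Eμ-deficient library were added after the data were seen. With 1 library of a genotype left out, the remaining one fits only its own genotype term. For the LPS effect such a fit rests on the same pairs as the fit without that genotype, apart from scaling and filtering. These alternatives are therefore not independent of each other. When tested on simulated counts for the LPS comparison over 14200 genes, with 200 genes changed, the fit recovered 32.4% of changes of 1 and 96.7% of changes of 2 on the log2 scale, and 5.34% of its calls were unchanged genes. In the data 5962 of 14600 genes were called under LPS, a far larger share than was changed in the simulation. The adjusted p depends on that share, so this recovery cannot be read as that of the LPS comparison.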

Additional observations from a re-analysis of the deposited data

Results flagged for a closer look

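Tnfrsf1b moved in opposite directions with LPS in wt and in 3′RR-deficient B-cells, with log2 ratios of -1.19 and 0.37, each with a counting interval on its own side of 0. The difference of 1.56 was not tested, since each ratio rests on 1 pair of libraries. The same 4 libraries give the second view of it: the ratio of 3′RR-deficient to wt was -0.18 for resting B-cells and 1.39 after LPS, again 1.56 apart and not tested.

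The 3′RR-deficient to wt ratio of Traf2 was -0.16 before and 0.45 after LPS, which differ by 0.61 and were not tested against each other. The Eμ-deficient to wt ratio of Traf5 was -0.46 before and 0.62 after LPS, which differ by 1.08, not tested either. Spike-in RNAs, which no comparison used, took up to 7.1% of the counts of a library.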

How the results depend on the processing

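With 1 library per genotype and state, the main fit had 2 residual degrees of freedom per gene. To these edgeR adds information on dispersion shared across genes. Fits without a genotype or a library had fewer residual degrees of freedom, and the fit without the genotype term had more. The genes called under LPS by the main fit numbered 5962 in all, 5 of the 10 described genes and 23 of the pathway genes. Leaving out 1 genotype gave 3960 to 6655 genes in all, 3 to 5 of the 10 and 12 to 24 pathway genes. Without the resting Eμ-deficient library there were 3962, 3 and 14, without the LPS-stimulated 3′RR-deficient library 3 of the 10 were called, and with the GC trend removed 8. Without the genotype term, which replaces the pairing of the libraries by genotype, 5421 genes and 5 of the 10 were called. Tnfrsf13b, Tnfrsf1a and Traf5 kept their call under all 14 alternatives. The LPS effect of Tnfrsf1b, not called, ranged from -0.657 without 3′RR-deficient to 0.159 without wt libraries. The cause of these shifts was not tested.

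For 3′RR-deficient against wt, 99 genes were called, against 178 with DESeq2, 339 without a filter on low counts, 48 with at least 50 counts in 3 libraries, 177 in a fit without the Eμ-deficient libraries and 183 without the resting one. For Eμ-deficient against wt, 170 were called, against 340 with DESeq2, 605 without a filter, 102 with the stricter filter, 88 with immunoglobulin genes left out, 393 without the 3′RR-deficient libraries and 421 without the LPS-stimulated one. For Eμ-deficient against 3′RR-deficient, 190 were called, against 366, 777, 119 and 77 under the first 4 of these settings. None of these fits called one of the 10 genes.

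Changes of sign between genotypes concerned values that were not called. For 3′RR-deficient against wt, Tnfrsf13b (0.03) became -0.043 with the total count, -0.021 without a filter, -0.045 with the GC trend removed, -0.007 without the Eμ-deficient libraries and -0.007 with protein-coding genes, and without the LPS-stimulated 3′RR-deficient library Tnfrsf13c became 0.077 and Traf2 -0.078. For Eμ-deficient against wt, Cd40 (0.01) became -0.068 with the total count, -0.005 with DESeq2 size factors, -0.005 with the DESeq2 test, -0.051 without a filter and -0.033 with the GC trend removed, and Traf5 (0.06) became -0.028 with the total count, 0.0 without a filter and -0.1 with the GC trend removed. For Eμ-deficient against 3′RR-deficient, Traf6 (-0.03) became 0.005 with the stricter filter, 0.004 with protein-coding genes, 0.003 without the LPS-stimulated 3′RR-deficient library and 0.146 without the resting Eμ-deficient one, where Traf5 (-0.23) became 0.136. With the GC trend removed, the 3′RR-deficient to wt ratio of Tnfrsf13b after LPS became -0.099.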
